A study of Mus musculus with 12 samples.

Results

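miR-126 is the miRNA by which endothelial cells are most often recognised, and both of its mature arms (mmu-miR-126-3p and mmu-miR-126-5p, below without the prefix) were measured in primary murine pulmonary endothelial cells. Both were chosen by name, as the rows that carry an arm and its assay number, which gives 2 of the 375 miRNA assays in the data. The cells came from lungs of male wild type C57BL/6N mice, 3 mice pooled per isolation, and were selected with magnetic beads first against CD144 and then against CD31. The study used 12 TLDAs (TaqMan low-density arrays), 4 of unstimulated cells (control, array numbers 4, 7, 10 and 13), 4 of cells given Tri-DAP, a ligand of NOD1 (5, 8, 11 and 14), and 4 of cells given MDP, a ligand of NOD2 (6, 9, 12 and 15), each ligand at 10 μg/mL for 6 h. The arrays of a group stand for independent cell isolations according to the paper. It names 4 isolations, so that control, Tri-DAP and MDP arrays may come from the same ones. The labels do not say which arrays would share an isolation, and the main tests took all arrays as independent. The p-values thus measure the spread between arrays, with any spread between isolations in it. Bead selection of primary cells can leave other cell types behind, which limits the cells as a model of the endothelium.

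miR-126 is encoded in an intron of Egfl7, a gene of a secreted endothelial protein, and one precursor gives rise to both arms. miR-126-3p is known to repress Spred1 and Pik3r2, brakes on VEGF signalling, and Vcam1, an adhesion molecule for leukocytes, while miR-126-5p is known to repress Dlk1, a Notch ligand, and so to favour endothelial proliferation. Through Vcam1 it is linked to inflammation of the vessel wall, which is what NOD1 and NOD2, cytosolic sensors of bacterial peptidoglycan, set off in endothelial cells.

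On GRCm38.p6, RefSeq places Mir126a on the plus strand at chr2:26591357-26591429, a precursor of 73 bases. It lies inside the span of Egfl7 (chr2:26581083-26592682, plus strand), 10274 bases from its start and 1253 bases from its end. Mir126b, of 58 bases, lies on the opposite strand at chr2:26591363-26591420. The mature 3p arm, of 22 bases, is at chr2:26591402-26591423 on the plus strand. Its sequence, from RefSeq and written 5′ to 3′, is shown because its seed (bases 2 to 8, in capitals) sets what the more abundant arm can pair with.
mmu-miR-126a-3p: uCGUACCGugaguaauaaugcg
Of 1679 distinct mature mouse miRNA names in the RefSeq table, only 1 carries the seed CGUACCG, that of miR-126a-3p itself, so no other listed miRNA shares it.

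Each of the 384 wells of a TLDA holds the TaqMan assay of one small RNA and reports the PCR cycle at which fluorescence crosses a threshold (Ct). A Ct that is lower by 1 cycle stands for about 2 times as much RNA. Between 231 and 254 miRNAs were measured per array. The mean Ct of the 4 wells of U6, the small nuclear RNA used as the reference, ranged from 18.3 to 21.6 over the 12 arrays. That of snoRNA202, another small RNA, ranged from 20.4 to 21.4.

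Both arms crossed the threshold on all 12 arrays and had the lowest mean Ct of the 174 miRNAs measured on each of them. On the control arrays the Ct of miR-126-3p was 19.8 (array 4), 19.4 (array 7), 19.3 (array 10) and 20.3 (array 13). After Tri-DAP it was 19.3 (array 5), 20.2 (array 8), 18.6 (array 11) and 20.4 (array 14). After MDP it was 19.4 (array 6), 19.8 (array 9), 19.1 (array 12) and 20.6 (array 15). The 3 groups overlapped over almost their whole range, and in every group the array with the highest number had the latest Ct.

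The Ct of miR-126-5p on the control arrays was 21.3, 20.1, 21.1 and 22.4, in the order of the array numbers. After Tri-DAP it was 20.8, 21.8, 20.2 and 22.3. After MDP it was 21.0, 21.5, 21.1 and 22.4. The 5p arm crossed later than the 3p arm on each of the 12 arrays, and the groups again overlapped.

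By mean Ct, miR-126-3p (19.7) was 1st and miR-126-5p (21.3) was 2nd of these 174 miRNAs, followed by miR-24 (21.5), transcribed with miR-23 and miR-27, and by miR-29a (22.4), which represses collagen genes. Among these 174, miR-126-3p had the lowest Ct on 8 arrays and the second lowest on 4. On 3 of those 4 arrays (control 4, MDP 6 and Tri-DAP 14) the earlier well was that of the rat assay rno-miR-190b, at a Ct of 18.6 to 19.5 there and of 33.0 to 37.8 on the other 9 arrays. On Tri-DAP 11 it was that of miR-680, at 10.6. miR-126-5p ranked between 2 and 5 within the same 174. Over all assays, those measured on only some arrays included, miR-126-3p was first on 5 arrays and ranked between 1 and 3, and miR-126-5p ranked between 2 and 7. Wells of miR-881 and miR-188-3p (control 13), miR-615-5p and miR-874 (Tri-DAP 8), miR-207 (MDP 6) and miR-675-5p and miR-675-3p (MDP 15) were ahead of miR-126-3p there, each from an assay that was measured on 1 or 2 of the 12 arrays. The positions of miR-126-5p and miR-24 in this order do not stand apart, since their mean Ct values lie closer together than the spread of miR-126-5p over the arrays, and assays differ in efficiency, so that ranks by Ct are rough.

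Relative to U6, expressed as log2 of expression over U6, miR-126-3p lay at 0.02, 0.66, −0.0027 and −0.88 on control arrays 4, 7, 10 and 13. It lay at 0.36, 1.42, −0.03 and −2.14 on Tri-DAP arrays 5, 8, 11 and 14. It lay at 0.83, 0.25, −0.39 and −0.93 on MDP arrays 6, 9, 12 and 15. The miRNA was thus about as abundant as U6 in Ct, and the widest scatter was that of the Tri-DAP group, in which array 8 had the latest U6 (21.6) and array 14 the earliest (18.3). The U6 wells of one array also differed among themselves. Their SD ran from 0.11 cycles on Tri-DAP 8 to 2.05 on MDP 12 and was 1.93 on Tri-DAP 14, so the U6 reference is itself uncertain.

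On the same scale miR-126-5p lay at −1.51, −0.11, −1.79 and −2.94 on the control arrays. It lay at −1.13, −0.24, −1.66 and −4.07 after Tri-DAP. It lay at −0.77, −1.50, −2.36 and −2.68 after MDP. In all 3 groups the last array was the lowest for both arms.

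**Figure D1:**
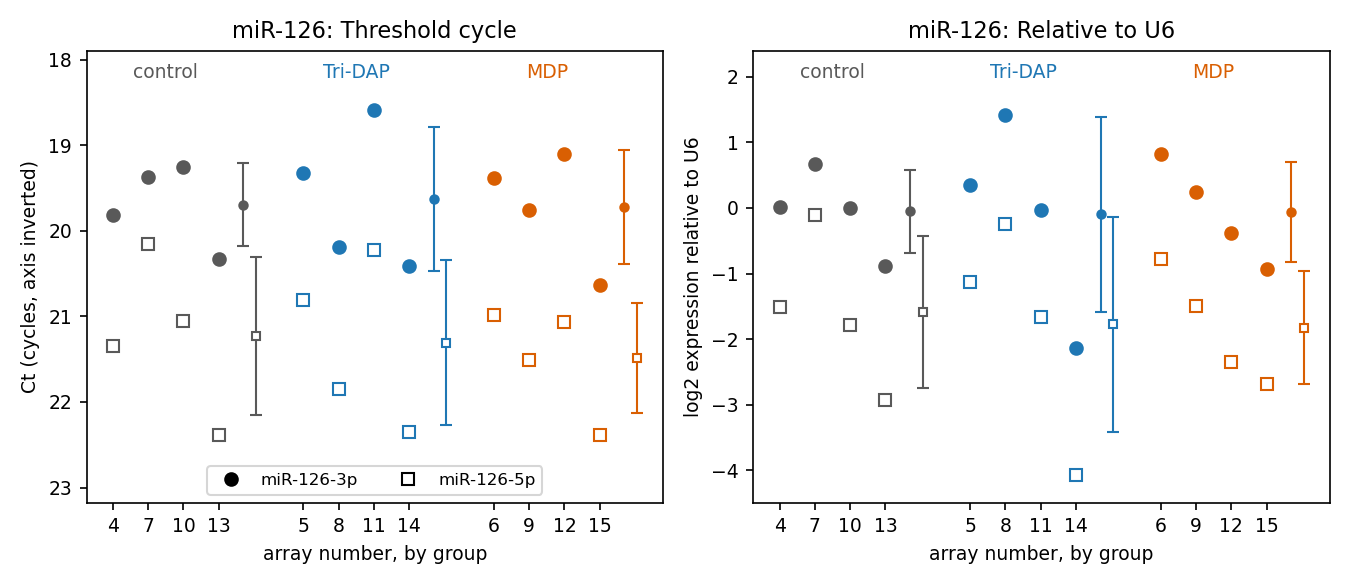
Ct (left, axis inverted so that more RNA is higher) and log2 expression relative to U6 (right) of miR-126-3p (filled circles) and miR-126-5p (open squares) on each of the 12 arrays, with the mean ± SD of each group (n = 4) to the right of its arrays. The groups overlap for both arms, and arrays 13, 14 and 15 have the latest Ct of miR-126-5p, 22.3 to 22.4.

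Whether stimulation of NOD1 or NOD2 changes endothelial miR-126 was the first comparison of the design. Neither arm differed between unstimulated, Tri-DAP-treated and MDP-treated cells beyond the spread between arrays. In log2 relative to U6, the means ± SD (n = 4 each) of miR-126-3p were −0.05 ± 0.64 for control, −0.06 ± 0.76 for MDP and −0.10 ± 1.49 for Tri-DAP, in falling order. Those of miR-126-5p were −1.59 ± 1.16 for control, −1.78 ± 1.64 for Tri-DAP and −1.83 ± 0.86 for MDP. No neighbours in these orders of levels differed beyond their spread.

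For Tri-DAP against control, limma gave a log2 difference of −0.05 for miR-126-3p (SE 0.75, 95% interval −1.67 to 1.57) and of −0.19 for miR-126-5p (SE 0.86, −2.06 to 1.68). Neither of the 2 arms was called at an unadjusted limma p under 0.05, a limit that 4 of 237 tested miRNAs passed (1.69%). For MDP against control the differences were −0.01 (−1.63 to 1.61) and −0.24 (−2.11 to 1.63), and again neither of the 2 arms was called, against 3 of 244 miRNAs (1.23%). For MDP against Tri-DAP they were 0.04 (−1.58 to 1.66) and −0.05 (−1.92 to 1.82), with neither arm called against 7 of 241 miRNAs (2.90%). No miRNA passed the limit after Benjamini-Hochberg adjustment in any of these limma comparisons.

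The exact two-sided permutation test over arrays gave p between 0.743 and 1 for the 6 comparisons, with an adjusted p of 1 in each, where 4 arrays against 4 cannot give less than 0.0286. In this fit the intervals do not exclude a change by a factor of 2 in either direction. Sets of 3 consecutive array numbers, each with 1 array of every group, were tried as a block after the data were seen, and neither labels nor paper state such sets. On raw Ct the intervals of miR-126-3p then narrowed to −0.57 to 0.70, −0.66 to 0.61 and −0.73 to 0.54. These are for the 3 comparisons in the order above, and none reached beyond 1 log2 unit. Those of miR-126-5p were −1.01 to 0.86, −1.19 to 0.68 and −1.11 to 0.75. With U6 as the reference all 6 still reached beyond 1 log2 unit. Because the sets were chosen after the values had been seen, the narrower intervals cannot exclude a change by a factor of 2. Neither arm was called in these fits either. The signs of several differences depended on the reference. When the mean Ct of the 174 miRNAs found on every array served as the reference (the miRNA mean), the difference for Tri-DAP against control was 0.19 for miR-126-3p and 0.04 for miR-126-5p.

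**Figure D2:**
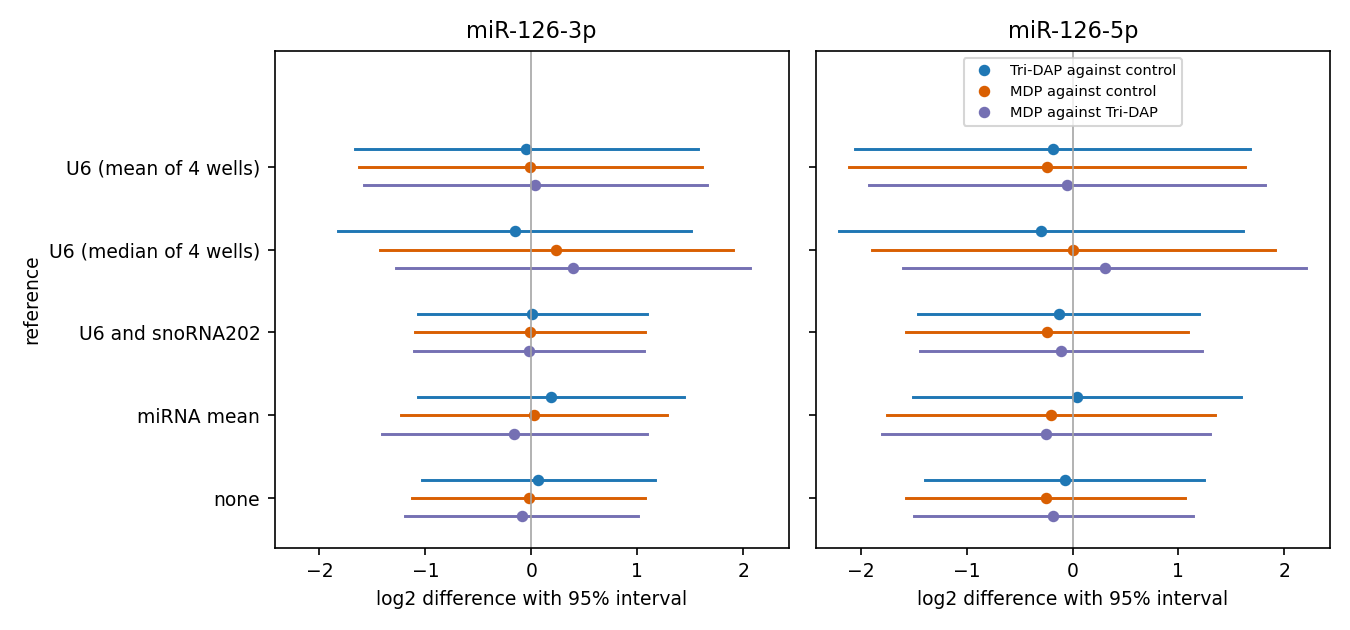
log2 differences of miR-126-3p (left) and miR-126-5p (right) with 95% limma intervals for the 3 comparisons, under each of 5 references. All 30 intervals include 0.

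The difference in Ct between both arms on one array does not depend on any reference RNA. The Ct of miR-126-5p minus that of miR-126-3p was 1.53, 0.77, 1.79 and 2.05 cycles on control arrays 4, 7, 10 and 13. It was 1.48, 1.66, 1.63 and 1.93 cycles on Tri-DAP arrays 5, 8, 11 and 14. It was 1.60, 1.74, 1.97 and 1.76 cycles on MDP arrays 6, 9, 12 and 15. Control 7 lay lower than all others, which fell within 1.48 to 2.05 cycles.

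With a doubling per cycle in both assays, the mean ratio of 3p over 5p (± SD, n = 4 each) was 3.05 ± 1.03 for control, 3.22 ± 0.43 for Tri-DAP and 3.42 ± 0.37 for MDP. Since the efficiency of each assay is not known, the size of this ratio is rough. Its comparison between arrays assumes that both assays have the same efficiency, which was not tested. With unlike efficiencies the arm difference would also shift with the amount of RNA. The mean arm difference was 1.54 cycles in control cells, 1.68 cycles after Tri-DAP and 1.77 cycles after MDP. Tri-DAP exceeded control by 0.14 cycles (95% interval −0.42 to 0.70, exact permutation p = 0.771), MDP exceeded control by 0.23 cycles (−0.33 to 0.79, exact permutation p = 0.600) and MDP exceeded Tri-DAP by 0.09 cycles (−0.47 to 0.65, exact permutation p = 0.486). The adjusted p was 0.771 for all 3 comparisons. Without control 7 the first of these differences became −0.11 and the second −0.03 cycles, so that their direction rests on this array.

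The arms also moved together from array to array within the groups. After removal of the group means, Pearson's r between the Ct values of both arms was 0.92 and Spearman's rho 0.86 over 12 arrays (permutation p = 4e-05 and 0.00059, adjusted over 3 scales 4e-05 and 0.00085). The permutation takes the 12 arrays as independent. Arrays 13, 14 and 15, from different groups, had near-equal Ct values (20.3 to 20.6 and 22.3 to 22.4). Removing group means does not remove what such arrays share, so these p-values are too small if groups share cell isolations. Without the 2 arrays farthest from the median, MDP 15 and Tri-DAP 14, r was 0.88. Leaving out one array at a time gave r between 0.90 and 0.97, the highest without control 7. Relative to U6, r was 0.97, on a scale on which both arms share the U6 value of their array. The pooled SD within groups was 0.68 cycles for the Ct of miR-126-3p and 0.86 cycles for that of miR-126-5p, but 0.35 cycles for their difference.

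**Figure D3:**
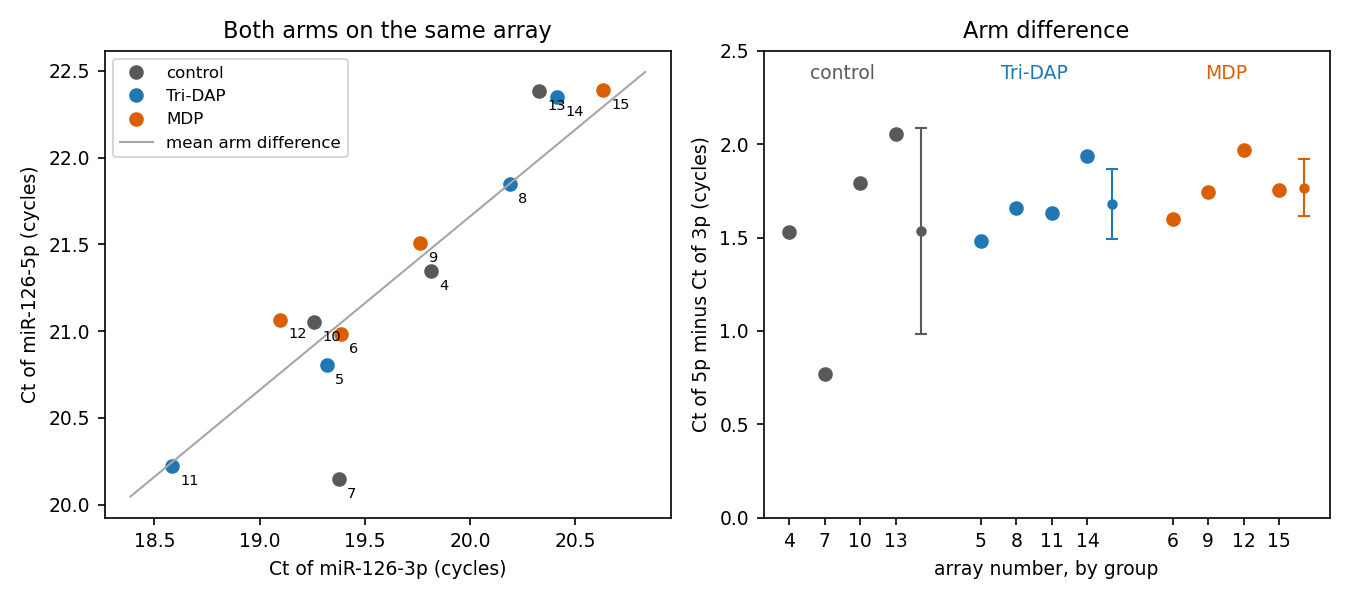
Left, Ct of miR-126-5p against Ct of miR-126-3p on the 12 arrays, labelled by array number, with a line at the mean arm difference of 1.66 cycles. Right, the arm difference (Ct of 5p minus Ct of 3p, in cycles) on each array with the mean ± SD of each group (n = 4); control 7 is the lowest at 0.77.

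Most other precursors with assays for both arms did not give such a pair. The arrays carry 35 mouse pairs whose names differ only by -3p and -5p, of which 10, miR-126 among them, had both arms measured on every array and 11 never had both arms measured on one array. In the other 9 complete pairs (miR-125a, miR-125b, miR-324, miR-331, miR-335, miR-337, miR-339, miR-340 and miR-532) the SD of the arm difference within groups ranged from 0.64 to 6.47 cycles, with a median of 1.32. The correlation of their arms over 12 arrays ranged from −0.51 to 0.96, with a median of 0.10, and was highest for miR-532. The 3p arm crossed first in 3 of them and the 5p arm in 6. The arms of these pairs had mean Ct values between 23.8 and 33.4, all later than both arms of miR-126, and the part of this later Ct in their wider spread was not tested.

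The arrays numbered 13 (control), 14 (Tri-DAP) and 15 (MDP) stood apart from the other 9 in miR-126. Relative to the miRNA mean, miR-126-3p lay between 7.74 and 7.90 on the log2 scale on these 3 arrays and between 8.91 and 9.69 on the others. miR-126-5p lay between 5.84 and 5.98 on these 3 arrays and between 7.37 and 8.87 on the others. There was no overlap for either arm, and each of the 3 groups holds one of these arrays. The arrays were singled out after their values had been seen, and this difference was therefore not tested. How many of the 174 miRNAs lacked overlap in this way was not counted. Overlap was also lacking for miR-29c, at 4.38 to 4.55 on these 3 arrays and 5.30 to 6.30 on the others. The same holds for several other miRNAs given below, so it is not particular to miR-126.

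On the same 3 arrays most listed miRNAs of smooth muscle cells, pericytes and fibroblasts were at their highest, with miR-1 as the exception. miR-145, which together with miR-143 maintains the contractile state of smooth muscle, crossed at a Ct of 23.1 to 23.5 on arrays 13 to 15 and at 27.0 to 33.1 on the other 9. miR-143 crossed at 24.8 to 25.0 and at 27.0 to 30.6. miR-214 and miR-199a-3p, a pair made from one mesenchymal transcript, crossed at 23.3 to 23.7 and 24.3 to 24.5 on arrays 13 to 15, against 26.0 to 30.9 and 26.5 to 29.5 on the others. Each of these 4 miRNAs was thus earlier on arrays 13, 14 and 15 than on any other array, while both arms of miR-126 were later.

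Over the whole lists, the smooth muscle and the mesenchymal sums were likewise highest on these arrays. The 5 smooth muscle and pericyte miRNAs summed to 17.0% to 19.2% of miR-126-3p on arrays 13 to 15, with a doubling per cycle, and to 0.0755% to 0.727% on the other 9. miR-133a was measured on 3 of 3 arrays at 31.6 to 33.1 and on 3 of 9 at 34.6 to 35.4, and miR-133b on 1 of 3 and on 0 of 9. miR-1 was measured on 3 of 3 arrays at 31.4 to 33.9 and on 5 of 9 at 27.7 to 34.3. Its earliest wells were those of MDP 6 (27.7), control 4 (28.9) and MDP 12 (29.6), so that it was not highest on arrays 13 to 15. The 3 fibroblast and mesenchymal miRNAs summed to 18.0% to 19.3% of miR-126-3p on arrays 13 to 15 and to 0.227% to 1.32% on the others. miR-199a-5p, the least abundant of these 3, was measured on 3 of 3 and on 6 of 9 arrays. Since these shares are taken of miR-126-3p, by which the arrays were singled out, the sums are also given on the log2 scale relative to the miRNA mean. On that scale the smooth muscle sum was 5.29 to 5.52 on arrays 13 to 15 and −0.80 to 2.32 on the others, and the mesenchymal sum 5.29 to 5.52 and 0.74 to 3.18. The sum of the 11 epithelial miRNAs was 2.54 to 2.74 on arrays 13 to 15, inside the range of the others (1.67 to 3.48), with miR-205 measured on 0 of 3 and on 1 of 9 arrays. As a share of miR-126-3p it was 2.44% to 3.13% on arrays 13 to 15 and 0.417% to 2.32% on the others. Relative to the miRNA mean, some epithelial miRNAs were highest on arrays 13 to 15. miR-429 was at −0.48 to 0.03 there and at −5.99 to −1.50 on the others. miR-141 was at −2.74 to −2.39 and −5.62 to −3.46, and miR-200c at −0.27 to −0.07 and −5.23 to −0.34. The other epithelial miRNAs overlapped or, as miR-205, were not measured on arrays 13 to 15. The sum of the 4 leukocyte miRNAs was −1.44 to −0.90 and −0.97 to 0.10, so that it was not raised on arrays 13 to 15. The erythroid miR-451 was measured on 2 of 3 and on 1 of 9 arrays, at a Ct of 32.9 or later.

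By group, the smooth muscle and pericyte sum ran from 0.0760% to 19.2% in control, from 0.106% to 17.0% after Tri-DAP and from 0.0755% to 18.3% after MDP, so that each group spanned the same range. The part of these other miRNAs in the lower miR-126 of arrays 13 to 15 was not tested, and in bulk RNA fewer endothelial cells and less miR-126 per cell cannot be told apart. Both arms nevertheless stayed ahead of all 4 mural and mesenchymal miRNAs on every array.

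**Figure D4:**
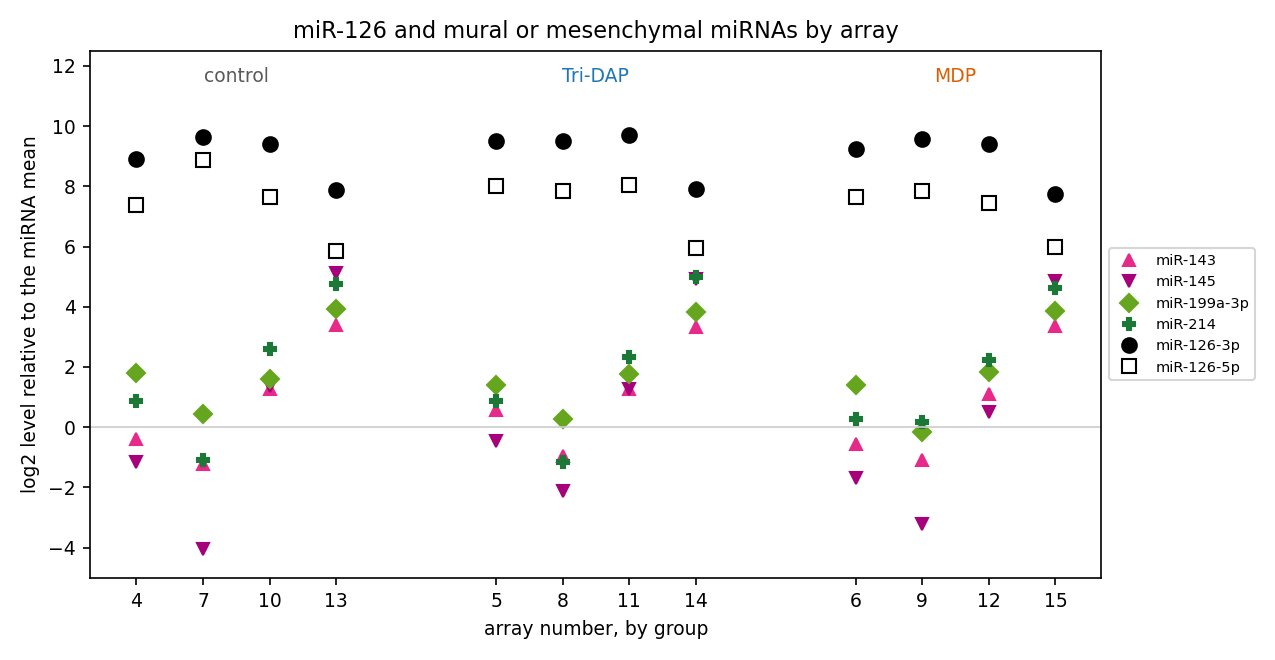
log2 level relative to the miRNA mean, by array and group, of miR-126-3p (filled circles), miR-126-5p (open squares), miR-143 and miR-145 (triangles) and miR-199a-3p and miR-214 (green). On arrays 13, 14 and 15 miR-126-3p is at 7.74 to 7.90 and miR-145 at 4.84 to 5.12, against 8.91 to 9.69 and −4.05 to 1.36 on the other arrays.

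With arrays 13, 14 and 15 left out together, the remaining 3 arrays per group again showed no call for either arm. The difference of miR-126-3p was then 0.36 for Tri-DAP against control and 0.0024 for MDP against control, and that of miR-126-5p 0.13 and −0.40, in log2 relative to U6. The correlation of the Ct values of both arms within groups was 0.85 over these 9 arrays (Spearman's rho 0.72, permutation p = 0.00435 and 0.0373, adjusted over 3 scales 0.00653 and 0.05), and 0.96 when control 7 was left out as well. Relative to the miRNA mean, where arrays 13 to 15 form a cluster of their own, r over the other 9 arrays was 0.77 (rho 0.68, permutation p = 0.0218 and 0.05, the same after adjustment), and 0.66 without control 7. Relative to U6, a value that both arms share, r was 0.93 and rho 0.90 (permutation p = 0.00083 and 0.00218, adjusted 0.00249 and 0.00654). Over these 9 arrays Pearson's r thus passed the limit of 0.05 after adjustment on all 3 scales. The rank correlation passed it relative to U6 only. These permutations, too, take the arrays as independent.

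The spread of miR-126 relative to the miRNA mean depended on the same 3 arrays. Relative to the miRNA mean, the pooled SD within groups was 0.82 for miR-126-3p and 1.04 for miR-126-5p over 12 arrays, where the median of the other 172 miRNAs was 0.68. Over the 9 arrays without 13, 14 and 15 it was 0.25 and 0.48, where that of the others was 0.62. The 3 arrays were singled out by miR-126 on this same scale, so its smaller spread without them follows from that choice. The other miRNAs had no part in the choice, so the values over 9 arrays do not rank the arms among them. On raw Ct over 12 arrays the pooled SD was 0.68 and 0.86 cycles beside a median of 0.78, and relative to U6 1.03 and 1.26 beside 0.999. Relative to snoRNA202 it was 0.68 and 0.74 beside 0.92. Of the 172 other miRNAs, 55.8% varied less than miR-126-3p and 72.1% less than miR-126-5p on the U6 scale, 38.4% and 55.8% on raw Ct, and 28.5% and 36.6% relative to snoRNA202. The place of both arms among the others in spread therefore depended on the reference.

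**Figure D5:**
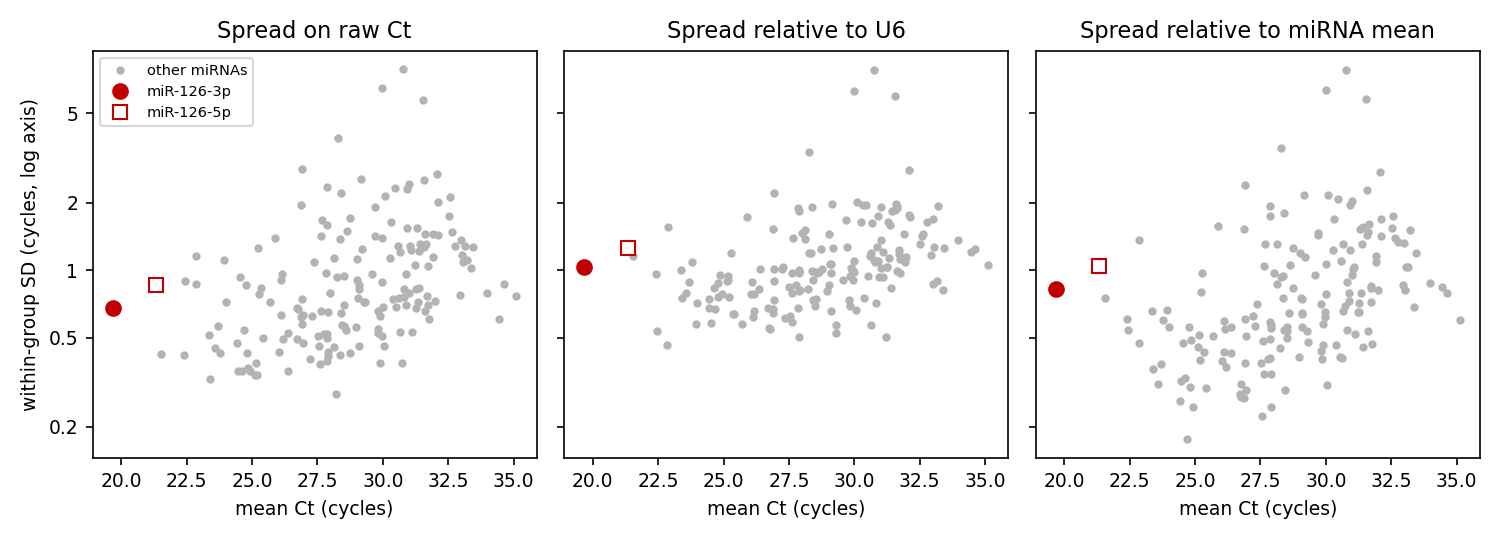
Pooled within-group SD (cycles, log axis) against mean Ct (cycles) for the 174 miRNAs measured on all 12 arrays, on raw Ct, relative to U6 and relative to the mean of these miRNAs. miR-126-3p (filled circle) has SDs of 0.68, 1.03 and 0.82 and miR-126-5p (open square) of 0.86, 1.26 and 1.04, with the lowest mean Ct of all.

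A few miRNAs followed miR-126 over the 12 arrays when each was taken relative to the miRNA mean. For miR-126-3p, Pearson's r was highest with miR-139-5p (0.96), miR-126-5p (0.95) and miR-672 (0.93). For miR-126-5p it was highest with miR-29c (0.95), miR-126-3p (0.95) and miR-195 (0.94). These values are a description over arrays that fall apart into 2 clusters, and over the 9 arrays without 13, 14 and 15 they were 0.54, 0.68 and 0.03 for miR-126-3p and 0.76, 0.68 and 0.86 for miR-126-5p. miR-139-5p, encoded in an intron of Pde2a, was at 1.79 to 2.16 on arrays 13 to 15 and at 3.50 to 4.16 on the others, and miR-672 at −1.58 to −0.85 and 0.65 to 1.82. miR-195, which belongs to the miR-15 and miR-16 seed family, was at 1.06 to 1.20 and at 1.62 to 2.55. The agreement of miR-672 with miR-126-3p rested on the 3 arrays, whereas miR-195 still followed miR-126-5p among the other 9.

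Other miRNAs linked to endothelial cells and angiogenesis gave no different picture. Of 28 listed, among them the miR-17 to miR-92a cluster, the miR-23, miR-24 and miR-27 clusters, miR-221, miR-222, miR-155 and the hypoxia-regulated miR-210, 26 were on the array and 25 were measured on all 12 arrays. Against control, 1 of 26 was called lower after Tri-DAP, miR-23a with a log2 difference of −2.79 (limma unadjusted p = 0.0217, adjusted p = 0.998), beside 1.69% of all miRNAs, and 0 of 26 after MDP, beside 1.23%. Between MDP and Tri-DAP 0 of 26 were called, beside 2.90%. Their median log2 difference was −0.19 after Tri-DAP, −0.06 after MDP and 0.16 between MDP and Tri-DAP, where the medians of all miRNAs tested were −0.24, −0.02 and 0.18. Of the marker lists, the smooth muscle list held the only other called miRNA, miR-1, a muscle miRNA, which was higher in MDP than in Tri-DAP by 4.87 (limma unadjusted p = 0.0181, adjusted p = 0.998). This difference rests on few wells, 2 of Tri-DAP with a late mean Ct of 33.9 and 3 of MDP with a mean Ct of 29.6.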

How the data were processed

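RNA (350 ng per sample, per the study's methods) was read on TLDAs with 40 cycles. The authors deposited Ct values, which are not normalized and stand at 40 where no threshold was reached, and normalized values, which are on a log2 scale and equal the Ct less the average of the 4 U6 wells of that array (checked on 384 assays, largest deviation 5.33e-15). Another deposited file holds the authors' own fold changes between groups and was not used. 12 unnamed columns were not used. Here the sign of the deposited values was turned, wells at 40 were treated as missing, and testing required 2 or more measured values per group. One limma fit (3.58.1, R 4.3.3, lmFit and eBayes) held all 12 arrays and no block, and a miRNA counted as called at an unadjusted limma p under 0.05, the Benjamini-Hochberg value being given too. Single values were compared by exact permutation tests, and correlations with 100000 permutations. On simulated data for Tri-DAP against control with 237 miRNAs, 58.4% of shifts of 2 on the log2 scale were recovered and 4.95% of unchanged miRNAs were called. The simulation drew each value independently. It held no U6 error shared by the miRNAs of an array and no arrays alike across groups. These rates therefore need not hold for the real arrays. Arrays carry no read counts, and their number limits the precision. The members, the lists of miRNAs and the tests were chosen with earlier results of these data known. Beside both arms, arm pairs, the 3 miRNAs per arm with the most similar pattern, the neighbours by Ct, and list members that were called were named. Alternatives covered the reference, undetermined wells, a Ct limit of 35, the filter, the arrays in the fit and the methods' t-test. The mature sequence of miR-126-5p was not analysed here.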

Additional observations from a re-analysis of the deposited data

Results flagged for a closer look

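On Tri-DAP array 14, miR-126-3p relative to the miRNA mean was 7.90 on the log2 scale, far below the other 3 Tri-DAP arrays (9.50 to 9.69). On the same array miR-126-5p was at 5.96, far below the others of its group (7.85 to 8.06). These were 2 of 39 group values examined, and chance flags about 1 in 20 groups. Both come from the same array and from arms that move together, so the 2 flags are not independent. Control 13 and MDP 15 had values close to those of Tri-DAP 14 (7.89 and 7.74 for miR-126-3p, 5.84 and 5.98 for miR-126-5p).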

How the results depend on the processing

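The labels pair no arrays, since no array number occurs in more than 1 group, and no pairing was used other than the sets of consecutive numbers. Neither arm was called in any of 156 values under the alternatives (smallest limma p 0.298, range −0.82 to 0.63 in log2), of which 38 had the opposite sign; the cause was not tested. For miR-126-3p, Tri-DAP against control was 0.0096 with U6 and snoRNA202 as the reference, 0.19 with the miRNA mean and 0.0673 on raw Ct. MDP against control was 0.0253 with the miRNA mean and 0.24 with the U6 median. MDP against Tri-DAP was −0.0217, −0.16 and −0.092 in the order of the first comparison. For miR-126-5p, Tri-DAP against control was 0.0437 with the miRNA mean, and with the U6 median MDP was at 0.008 against control and at 0.31 against Tri-DAP. The median difference of all miRNAs moved with the reference too, for Tri-DAP against control from −0.24 to 0.007 with the miRNA mean, and for both MDP comparisons from −0.02 to 0.22 and from 0.18 to 0.54 with the U6 median.

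Added after the data were seen, arrays 13 to 15 left out gave 0.36, 0.00242 and −0.35 for miR-126-3p in the 3 comparisons (0.12, 0.0683 and −0.05 on raw Ct) and 0.13 for miR-126-5p after Tri-DAP, and SDs relative to U6 of 0.60 and 0.81. The raw Ct SD of miR-126-3p was 0.53 without these arrays and 0.68 over all arrays. Arrays of consecutive numbers taken as sets, a replicate block chosen after the data were seen, gave on raw Ct 0.0673 for Tri-DAP against control and −0.092 for MDP against Tri-DAP.

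Of the counts called, Tri-DAP against control (4, 0 of them higher) became 7 on raw Ct (2 higher), 8 with wells kept at 40, 1 with miRNAs on all arrays, 10 and 14 with sets (U6 and raw Ct) and 2 without arrays 13 to 15. MDP against control (3, 2 of them higher) became 5 with the miRNA mean (3 higher), 6 with the U6 median (5 higher), 1 at the Ct limit of 35, 0 on all arrays, 5 with 2 groups fitted, 1 by the methods' t-test, 6 and 11 with sets and 7 without arrays 13 to 15 on raw Ct. MDP against Tri-DAP (7) became 11, 4 and 0 with the U6 median, the limit of 35 and all arrays, 4 by the methods' t-test, 17 with sets on raw Ct and 2 without arrays 13 to 15 on both scales. The numbers of miRNAs tested differ between these settings. They were 237, 244 and 241 in the main fit, 375 with wells kept at 40 and 174 on all arrays. The limit of 35 left 229 and 225 in the MDP comparisons. Without arrays 13 to 15 they were 220, 231 and 223.

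Leaving out one array at a time gave, in the order used above (each ligand against control, then MDP against Tri-DAP), −0.55 to 0.63, −0.30 to 0.28 and −0.64 to 0.54 for miR-126-3p, and −0.70 to 0.58, −0.69 to 0.25 and −0.82 to 0.46 for miR-126-5p. The sign changed without control 7 or Tri-DAP 14 for both arms after Tri-DAP, and without control 7 or MDP 15 for both after MDP (for miR-126-3p also without control 4, control 10 or MDP 12). Between the ligands it changed without MDP 6, MDP 9 or Tri-DAP 14 for miR-126-3p and without MDP 12, MDP 15, Tri-DAP 5 or Tri-DAP 8 for miR-126-5p. Counts ranged from 1 (without Tri-DAP 5) to 12 (without Tri-DAP 8), from 1 (without control 4 or MDP 15) to 6 (without Tri-DAP 8) and from 2 (without MDP 15 or Tri-DAP 14) to 17 (without Tri-DAP 8). Arm differences ranged from −0.11 to 0.31, −0.0251 to 0.40 and 0.02 to 0.17 cycles, the lowest of the first 2 without control 7, and the correlation of both arms from 0.90 to 0.97. With 3 arrays in a group the exact test of the arm difference cannot pass 0.05, so those values say nothing about its stability.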

Other observations

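The arrays can be ordered by their label numbers, which the sources do not explain. The Ct of miR-126-3p was 19.3 to 19.8 on arrays 4 to 6, 19.4 to 20.2 on arrays 7 to 9, 18.6 to 19.3 on arrays 10 to 12 and 20.3 to 20.6 on arrays 13 to 15. That of miR-126-5p was 20.8 to 21.3, 20.1 to 21.8, 20.2 to 21.1 and 22.3 to 22.4 in the same order. Each of these runs of 3 numbers holds 1 array of each group. The mean Ct of the 174 miRNAs was 28.6 to 28.8, 29.0 to 29.7, 28.3 to 28.7 and 28.2 to 28.4. Arrays 13 to 15 had the latest Ct of both arms, while their miRNA mean overlapped that of arrays 10 to 12.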
